A study of Homo sapiens with 2 samples.

Results

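Activins, bone morphogenetic proteins (BMPs) and transforming growth factors beta (TGF-betas) are secreted ligands of 1 protein superfamily. This account follows 10 of its genes, namely the ligands INHBA, TGFB1, TGFB2, BMP2 and BMP4, the antagonist FST, the receptors TGFBR1 and TGFBR2, the inhibitory SMAD gene SMAD7 and the target gene ID1. The members were all array probes, control probes left out, that carry 1 of these gene names. They came to 11 probes and 20 spots, of 58201 probes and 60901 spots with 43317 gene names in all. TGFBR2 had 2 probes, INHBA had 1 probe printed at 10 spots, and each other gene had 1 probe with 1 spot.

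Expression was measured in Ca9-22, an oral squamous cell carcinoma (OSCC) line. The cells received a lentiviral vector that carries the long noncoding RNA DLEU1, or a control vector, and both cultures were kept under Blasticidin, which the labels give as 6 mg/ml, for 2 weeks. Each of the 2 groups had 1 array, and both arrays lay on 1 slide and were read in 1 scan. With 1 array per group no test was possible, and so few arrays limit how precise any value can be.

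In this superfamily a dimeric ligand brings together type I and type II serine/threonine kinase receptors. The type I receptor then phosphorylates SMAD proteins, which join the common SMAD4 and act on genes in the nucleus. TGF-betas and activins signal mainly through SMAD2 and SMAD3, and BMPs through SMAD1, SMAD5 and the protein of SMAD9. Follistatin, the product of FST, binds activins and keeps them from their receptors, and SMAD6 and SMAD7 are feedback inhibitors inside the cell. TGF-beta is known for arresting the growth of squamous epithelial cells, and ID1 is a textbook target of BMP signalling.

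The probe sequences below are shown because each one reads a part of the transcript that codes for the cysteines of the protein, which hold the fold of these ligands and of follistatin. Each is 60 bases long and is written 5′ to 3′ on the strand of the gene, with the codons for cysteine in capitals, in the known reading frame of the protein. Positions are on hg19. The INHBA probe, chr7:41729246-41729305 (minus strand), runs through the stop codon and holds 2 cysteine codons. The FST probe, chr5:52780837-52780896 (plus strand), holds 3 cysteine codons. The TGFB1 probe, chr19:41838142-41847802 (minus strand), holds 3 cysteine codons and joins parts of the genome that span 9661 bases, so it reads spliced RNA.
INHBA: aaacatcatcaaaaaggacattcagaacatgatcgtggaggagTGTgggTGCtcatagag
FST: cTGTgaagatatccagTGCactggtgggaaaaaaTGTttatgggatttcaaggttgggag
TGFB1: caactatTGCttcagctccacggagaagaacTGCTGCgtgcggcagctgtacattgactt

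The vector was examined first. The brightest DLEU1 probe went from a log2 level of 3.17 to one of 5.91 with the DLEU1 vector, a difference of 2.74, and the dimmer DLEU1 probes differed by 0.85 and 0.54. A level is the log2 of the processed signal, the brightness of the spot after background subtraction, minus the 75th percentile of the array. Each difference is the level with the DLEU1 vector minus that with the control vector, so that 1 stands for 2-fold. A gene was called detected where its probe was well above background on both arrays, which held for 20246 genes. Their median difference was -0.07 with an SD over genes of 0.90. Of these genes, 9.18% were at least 2-fold higher with the DLEU1 vector, 9.78% were at least 2-fold lower and 45.8% had a difference above 0. Other constant scalings shift every gene alike, by -0.46 where spike-in RNA is set equal on both arrays, by -0.11 with median scaling and by 0.11 with the 75th percentile over detected probes. Before scaling, the 8 spike-in probes differed between the arrays by -0.19 to 0.52, so the size of the spike-in shift is uncertain. A damaged area on the DLEU1 vector array held 0 of the 20 member spots.

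Of the 10 genes, 9 were detected on both arrays. BMP2 and ID1 were at least 2-fold higher with the DLEU1 vector, FST and TGFBR2 were at least 2-fold lower, and the other 5 were under 2-fold. That is 2 of 9 (22.2%) each way, against the 9.18% and 9.78% of all genes. The 10 genes were chosen with earlier results of these data known, so these shares describe them and test nothing. With spike-in scaling the split was 1 higher, BMP2, and 2 lower, where the shares over all genes were 4.6% and 23.9%, so the share of lower members was then close to that of all genes. The differences ran from -3.71 for FST to 2.49 for BMP2. Each is set below beside the SD of the log2 difference between spots of 1 probe, taken from probes of like brightness that have 10 spots. Brightness here is the mean level over the 2 arrays, and the spot SD is larger for dim probes. For genes that differ widely, such as FST and BMP2, it may thus be too small for the dimmer reading. This spot SD is technical and holds none of the variation between cultures. In bulk RNA, fewer cells of a type and less RNA per cell cannot be told apart.

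**Figure D1:**
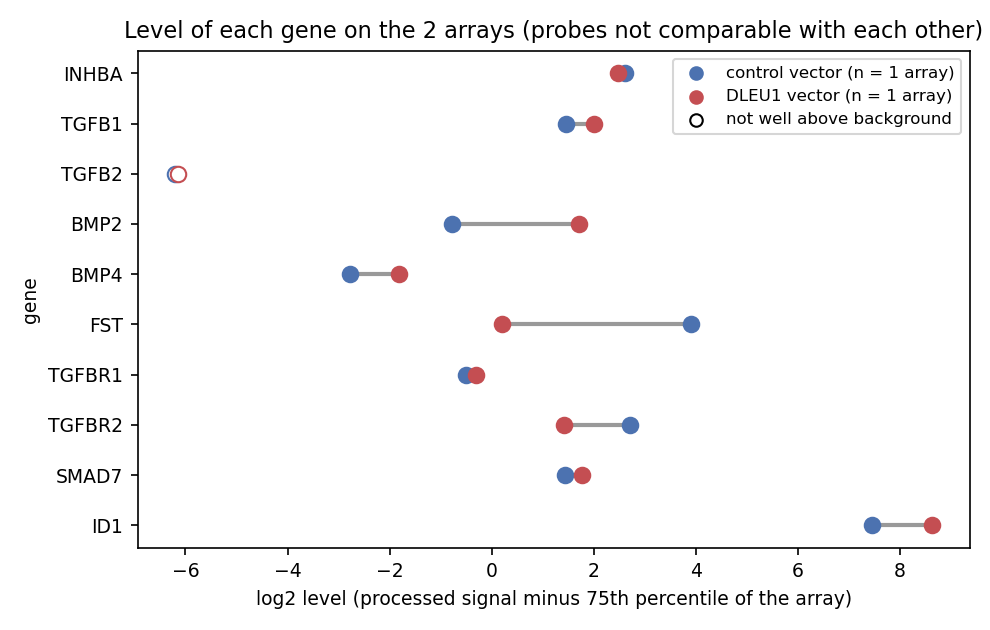
Log2 level of each of the 10 genes (x axis, processed signal minus the 75th percentile of the array) on the control vector array (blue) and the DLEU1 vector array (red), 1 array each, with open points for a probe not well above background. The long lines are those of FST (3.90 to 0.20), BMP2 (-0.78 to 1.71), TGFBR2 (2.71 to 1.42) and ID1 (7.46 to 8.63); different probes are not comparable in level.

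Activin A is a dimer of the product of INHBA. On the control vector array the processed signal of the 10 INHBA spots ran from 1426 through a median of 1496 to 1555, and on the DLEU1 vector array from 1253 through 1329 to 1418. Before scaling, the spots of the arrays did not overlap, although the gap between the lowest of one array and the highest of the other was small. After scaling they did overlap, with a lowest log2 level of 2.56 under the control vector and a highest of 2.59 under the DLEU1 vector. The mean log2 difference was -0.13 with an SD of 0.0476 over 10 spots, between -0.22 and -0.09, and it was below 0 at 10 of 10 spots. These are spots of 1 probe on 1 array per group, so they repeat the reading and not the culture. A fold of 1.10 lower is within what the scaling can move. The difference was -0.59 with spike-in scaling and changed sign to 0.01 with loess, and 46.5% of all detected genes were at least as low as INHBA.

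**Figure D2:**
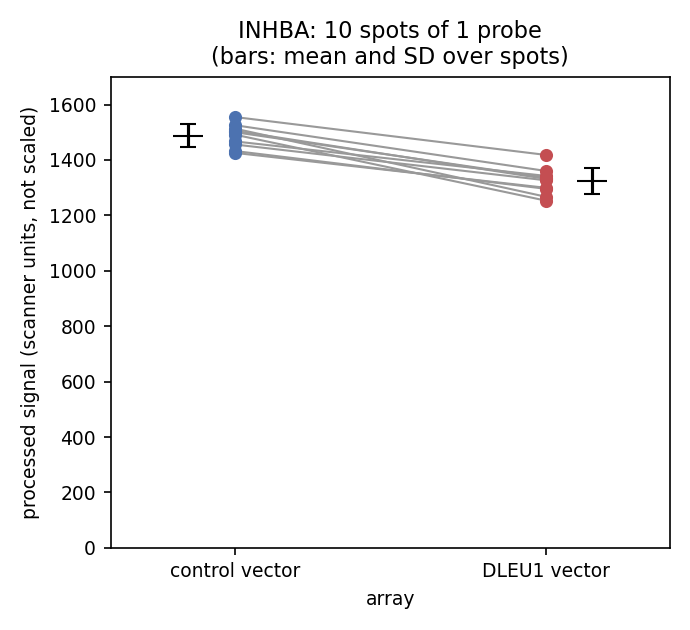
Processed signal of INHBA (y axis, scanner units before scaling between arrays) at the 10 spots of its probe on each array, with lines joining the same spot and bars giving the mean and the SD over spots. Every line runs down, from 1426 to 1555 with the control vector to 1253 to 1418 with the DLEU1 vector.

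FST showed the largest difference of the 10 genes. Its processed signal was 3625 under the control vector and 271 under the DLEU1 vector, and its log2 level was 3.90 and 0.20. FST was thus lower by a log2 difference of -3.71, or 13.1-fold, against a spot SD of 0.0698. Of all detected genes, 15 (0.0741%) were at least as low, FST included. The probe was well above background on both arrays, and the difference stayed between -4.16 and -3.44 under every alternative run. The ligand that follistatin binds and the antagonist therefore differed in unequal measure, with the difference of FST 3.58 below that of INHBA on the log2 scale. FSTL3, which codes for a follistatin-like protein that also binds activins, had a signal of 732 and 845, a difference of 0.24, which changed sign with spike-in scaling.

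The BMP ligands were next. BMP2, an osteogenic BMP that is also made by epithelia, had a processed signal of 141 under the control vector and 774 under the DLEU1 vector. Its log2 level went from -0.78 to 1.71, a difference of 2.49, or 5.63-fold higher, against a spot SD of 0.109. At least as high were 221 genes (1.09%). The BMP2 difference ran from 2.04 with spike-in scaling to 2.61 with the 75th percentile over detected probes. BMP4, the closest relative of BMP2, was dim, with a signal of 35.5 and 67.2. Its log2 level was -2.77 and -1.81, and the difference of 0.96, or 1.94-fold, was just under the 2-fold limit. The spot SD at this brightness was 0.254 and rests on 4 probes. BMP4 was past 2-fold (1.07) where the 75th percentile was taken over detected probes. Normexp background correction, which also adds 50 to every signal, gave 0.47. The size of the BMP4 difference thus depends on how a dim signal is handled. Both BMP ligands were higher with the DLEU1 vector, BMP2 by 1.54 more than BMP4 on the log2 scale.

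Of the TGF-beta ligands, TGFB1 had a processed signal of 667 and 953. Its log2 level was 1.46 and 2.01, so TGFB1 was higher with the DLEU1 vector by 0.55, or 1.47-fold, against a spot SD of 0.0744. TGFB1 is the form of TGF-beta made most widely. Its difference was above 0 under every alternative run, although spike-in scaling left 0.09. The TGFB2 probe was not well above background on either array, with a signal of 3.30 and 3.35, and no fold was computed. TGFB3, which is no member, had a signal of 62.2 and 39.4 and a difference of -0.62.

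Both TGF-beta receptors were read. TGFBR2, the type II receptor that binds TGF-beta first, had a processed signal of 1587 under the control vector and 631 under the DLEU1 vector. The log2 level was 2.71 and 1.42, a difference of -1.29, or 2.45-fold lower, against a spot SD of 0.0697. At least as low were 1099 genes (5.43%), and the difference stayed between -1.75 and -1.17. This probe lies at chr3:30735163-30735222. The other TGFBR2 probe, at chr3:30703057-30703116 and made for a predicted transcript, was not well above background on either array (3.50 and 3.59). TGFBR1, the type I receptor, had a signal of 172 and 192 and a log2 level of -0.50 and -0.30. Its difference of 0.20 was close to the spot SD of 0.158 and changed sign, to -0.26, with spike-in scaling. The difference of TGFBR2 lay 1.49 below that of TGFBR1 on the log2 scale, and between 1.38 and 1.49 below under the alternatives.

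Inside the cell, SMAD7 keeps type I receptors from activating SMADs and is itself induced by TGF-beta. Its processed signal was 660.0 under the control vector and 806 under the DLEU1 vector, and its log2 level was 1.45 and 1.77. The difference of 0.33 exceeded the spot SD of 0.0771 but was under 2-fold, and it changed sign, to -0.13, with spike-in scaling. ID1 codes for a helix-loop-helix protein that binds other such factors and blocks their contact with DNA. Its processed signal was 42512 and 93679.8, so the probe was bright on both arrays, and neither spot was saturated. The log2 level was 7.46 and 8.63, a difference of 1.18, or 2.26-fold higher, against a spot SD of 0.0441. At least as high were 1426 genes (7.04%). The difference was 1.51 with loess and 0.72 with spike-in scaling, where ID1 was no longer 2-fold higher.

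**Figure D3:**
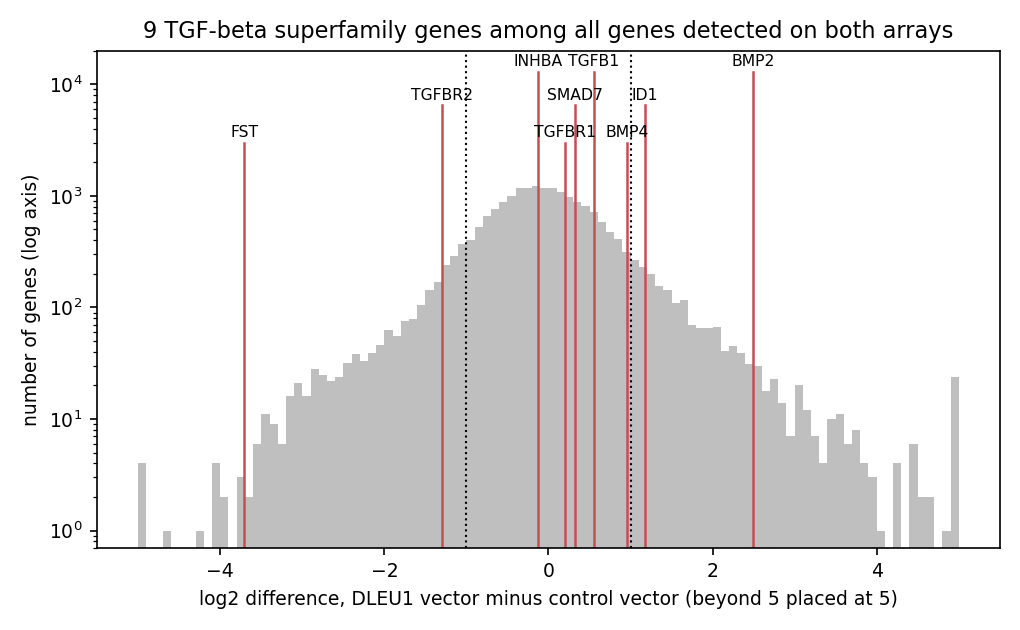
Number of genes (y axis, log scale) by log2 difference, DLEU1 vector minus control vector (x axis, bins of 0.1), for the 20246 genes detected on both arrays, with red lines at the 9 detected genes described here and dotted lines at 2-fold. FST (-3.71) and BMP2 (2.49) stand in the tails, and INHBA (-0.13), TGFBR1 (0.20), SMAD7 (0.33) and TGFB1 (0.55) in the middle.

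The other genes of the pathway were read from lists by role. The lists named 92 of them, 91 had a probe, and 58 were detected on both arrays. Of these 58, 19 (32.8%) were at least 2-fold higher with the DLEU1 vector and 1 (1.72%) was at least 2-fold lower, where the shares over all genes were 9.18% and 9.78%. The lists were chosen with earlier results of these data known, so counts over them are a description and not a test. Of the 58, 38 had a difference above 0 and 20 below. Their median was 0.32, where that of all genes was -0.07. With spike-in scaling 12 of the 58 were higher and 8 lower, beside 4.6% and 23.9% of all genes, and the median of -0.13 compared with -0.53 for all genes. Another 29 were not detected on either array, 3 were detected with the control vector only (GDF7, ACVRL1 and SMAD9) and 1 with the DLEU1 vector only (INHBE), all 4 with a bound under 2-fold.

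The genes past 2-fold were unevenly spread over the roles. Among other TGF-beta, activin and inhibin ligands, 2 of 5 detected were higher and 0 lower, beside 9.18% and 9.78% of all genes. INHA, the alpha subunit that turns activin into inhibin, was dim at 29.6 and 93.7 and differed by 1.70, and INHBB, the subunit of activin B, by 1.25 (63.2 and 146). Both were under 2-fold with normexp (0.83 and 0.75). None of the 6 other BMP and GDF ligands detected was past 2-fold at its brightest probe (0 higher, 0 lower). Beside the 9.18% and 9.78% of all genes, 6 genes are too few to set this role apart. The 3 BMP7 probes disagree, from 0.64 at the brightest to 1.54. BMP7 was past 2-fold (1.10) where the mean of the probes was used. Of the genes that hold ligands latent or release them, 3 of 9 were higher and 0 lower, beside the same shares of all genes. ITGB6 and ITGB8, integrin chains that release active TGF-beta from its latent form, differed by 2.21 (68.6 and 310.0) and 1.82 (399 and 1369.7). BMP1, a protease that is no BMP ligand and cleaves chordin and procollagens, differed by 1.79. THBS1 was the 1 gene of the 9 with a difference below 0 (-0.64, and -0.66 at its other probe). With spike-in scaling THBS1 was past 2-fold lower (-1.10). The 2 LTBP1 probes disagree, with 0.70 at the brighter and -0.43 at the other.

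Of the other secreted antagonists, 2 of 6 detected were higher and 1 lower, beside 9.18% and 9.78% of all genes. LEFTY1, an inhibitor of Nodal, differed by 1.72 (53.8 and 172) and BMPER, a BMP-binding protein, by 1.24. SOST, whose product is sclerostin, differed by -1.11, but its signal of 44.1 and 19.9 was dim and normexp gave -0.30. The FST difference was thus the lowest of its role.

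No other receptor or SMAD that transmits the signal passed 2-fold in the main setting. Of 9 other receptors and co-receptors detected, 0 were higher and 0 lower, beside 9.18% and 9.78% of all genes, with a median of 0.15. The largest differences among these were those of ACVR2B, an activin type II receptor (0.96), and BAMBI, a decoy receptor (-0.72). ACVR2B was past 2-fold (1.07) where the 75th percentile was taken over detected probes, and BAMBI (-1.18) with spike-in scaling. The type II receptors ACVR2A and BMPR2 differed by 0.22 and 0.15, the activin type I receptor ACVR1B by -0.06 and the co-receptor TGFBR3 by -0.49, and ACVR2A, BMPR2 and ACVR1B changed sign under some scalings. Of 5 such SMADs detected, 0 were past 2-fold, and their median was -0.05. TGFBR2 was thus the 1 receptor of 11 detected that was past 2-fold in the main setting.

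Intracellular inhibitors and target genes held most of the higher genes. Without SMAD7 and ID1, 12 of the 18 detected (66.7%) were at least 2-fold higher, 0 were lower, and the median was 1.21. Over all genes, 9.18% were higher and 9.78% lower, and the median was -0.07. ID2 and ID3 code for the nearest relatives of the ID1 protein. ID2 had a processed signal of 846 under the control vector and 3619 under the DLEU1 vector, a difference of 2.14, and its 2 probes gave 2.14 and 2.31. ID3 had a signal of 1447 and 7185, a difference of 2.35. Both differed by more than ID1 (1.18), and both stayed past 2-fold under every alternative run, with the lowest at 1.68 and 1.89.

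Of 7 other intracellular inhibitors, 4 were higher, beside 9.18% of all genes. PMEPA1, a membrane protein that binds SMADs, had a signal of 3369 and 12759 and differed by 1.96, with its probes between 1.48 and 1.96. SMAD6, the relative of SMAD7 that acts mainly on BMP signalling, had a signal of 643 and 1353 and differed by 1.11. The SMAD corepressors SKIL and TGIF1 differed by 1.19 and 1.41, and the second TGIF1 probe gave 0.32, so the probes of TGIF1 disagree. With spike-in scaling SMAD6 (0.65), SKIL (0.73) and TGIF1 (0.95) were under 2-fold, as were INHBB (0.79), BMPER (0.78), TGFBI (0.78) and ADAM19 (0.56) of the other roles.

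Of 9 TGF-beta targets detected, 6 were higher and 0 lower, beside 9.18% and 9.78% of all genes. COL1A1, a chain of type I collagen, had a signal of 337 under the control vector and 5217 under the DLEU1 vector, a difference of 3.99. TGFBI, an extracellular matrix protein, had a signal of 52054 and 119902 and differed by 1.24. The cell cycle inhibitors CDKN1A and CDKN2B differed by 2.53 (84.7 and 476) and 1.52 (29.1 and 81.2), and ADAM19 by 1.02. With normexp CDKN2B (0.77) and ADAM19 (0.88) were under 2-fold, as were LEFTY1 (0.92) and BMPER (0.65). These genes answer to other pathways too.

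**Figure D4:**
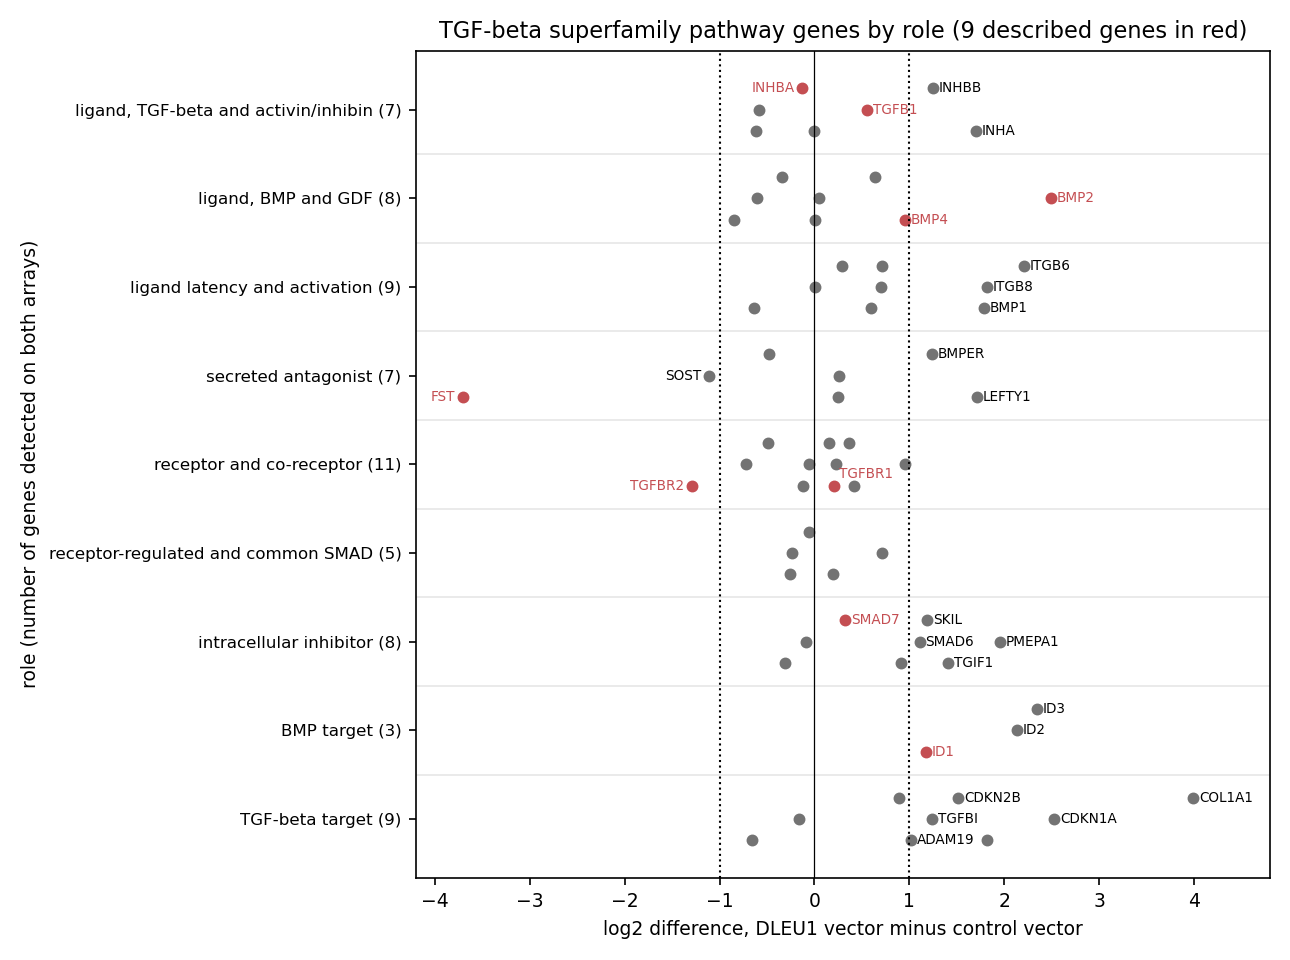
Log2 difference, DLEU1 vector minus control vector (x axis), of each pathway gene detected on both arrays, by role (y axis, with the number of genes), with the genes described here in red, the others in gray and dotted lines at 2-fold. Genes past 2-fold sit among ligands, latency genes, antagonists, inhibitors and targets, and among receptors TGFBR2 (-1.29) is the 1 such gene in the main setting, although other scalings take ACVR2B or BAMBI past 2-fold.

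Markers of cell types were set beside these results. All 6 squamous epithelial markers were detected on both arrays, from TP63 (0.96) to KRT17 (3.09). Of these, 5 were at least 2-fold higher with the DLEU1 vector, beside 9.18% of all genes. Of 6 fibroblast markers, PDGFRB was detected on both arrays near the lower end (21.3 and 16.5), LUM with the DLEU1 vector only (at least 2.47-fold), and COL1A2, COL3A1, DCN and THY1 on neither array, although COL1A1 was. Of 5 leukocyte markers 4 were detected, among them PTPRC (0.45), CD14 (-1.60) and CSF1R (1.86), and CD3E was not. Of 4 endothelial markers VWF (3.70, with -0.07 at another probe) and CDH5 (-0.59) were detected, and PECAM1 and KDR were not. Among 14 keratinocyte differentiation genes, 9 of the 10 detected on both arrays were at least 2-fold higher, with a median of 5.45, and 4 were detected with the DLEU1 vector only. The 14 proliferation genes had a median of -2.46, and each of them was past 2-fold in that direction, beside 9.78% of all genes. The squamous, differentiation and proliferation lists each moved largely 1 way between the same 2 arrays as the members, the leukocyte and endothelial markers did not, and the part of these lists in the differences of FST, BMP2, TGFBR2 and ID1 was not tested.

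The upstream sequences of the pathway genes were read for the SMAD-binding element, a repeat of the box that SMAD3 and SMAD4 bind. RefSeq promoters on GRCh38.p14 were matched by symbol for 9 of the 10 genes, with 21 promoters, and the window was the 250 bases before each start. BMP2 had no match. The palindrome GTCTAGAC, which reads alike on both strands and contains both GTCT and AGAC, was in 64 of 35116 promoters (0.182%), in 0 of the 21 and in 1 of 144 promoters of 82 pathway genes, that of SMAD6. The single box, GTCT or AGAC, was in 77.5% of all promoters and in 16 of the 21 (76.2%), so it does not set these genes apart. A match is a description of letters and not a site of binding. The windows of ID1, chr20:31605039-31605288 (plus strand), and SMAD6, chr15:66701986-66702235 (plus strand), are shown because ID1 is the BMP target among the 10 genes and SMAD6 holds the palindrome, which begins 12 bases before its start. Capitals mark each box.
ID1: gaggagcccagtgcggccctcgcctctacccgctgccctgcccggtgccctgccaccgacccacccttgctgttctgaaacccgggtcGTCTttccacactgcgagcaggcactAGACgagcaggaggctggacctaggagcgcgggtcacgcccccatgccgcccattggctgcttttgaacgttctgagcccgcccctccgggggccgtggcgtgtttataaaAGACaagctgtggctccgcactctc
SMAD6: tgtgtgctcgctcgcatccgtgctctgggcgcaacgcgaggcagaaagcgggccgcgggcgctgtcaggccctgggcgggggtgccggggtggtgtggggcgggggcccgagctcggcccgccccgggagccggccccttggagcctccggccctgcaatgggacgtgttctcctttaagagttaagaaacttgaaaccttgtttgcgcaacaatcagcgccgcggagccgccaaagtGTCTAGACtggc

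**Figure D5:**
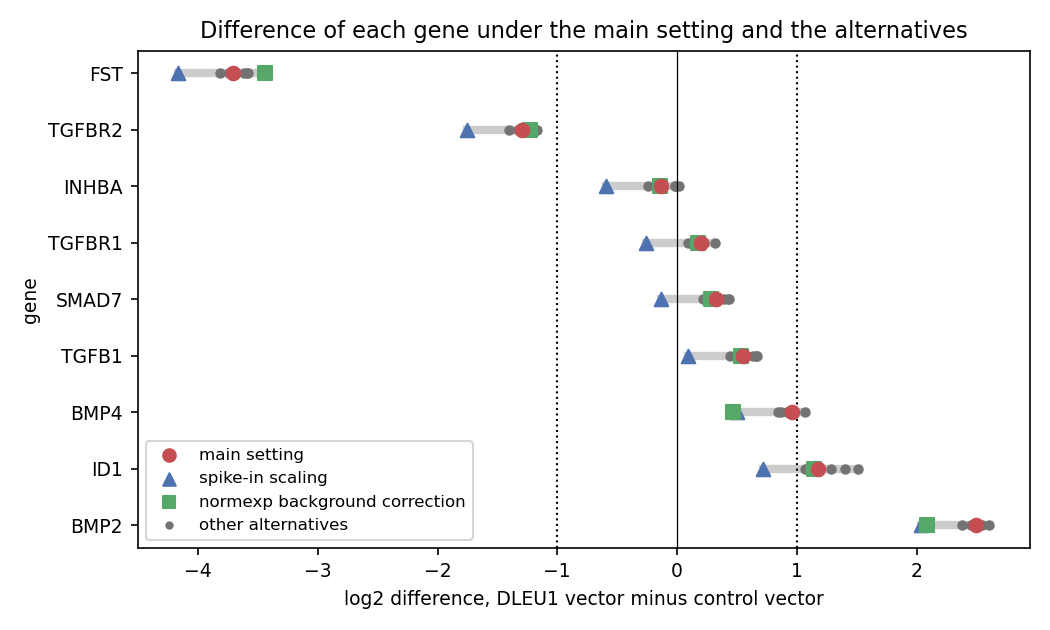
Log2 difference, DLEU1 vector minus control vector (x axis), of the 9 detected genes under the main setting (red), spike-in scaling (blue), normexp background correction (green) and the other alternatives (gray), with dotted lines at 2-fold and gray bars over the range. FST (-4.16 to -3.44), TGFBR2 (-1.75 to -1.17) and BMP2 (2.04 to 2.61) stay past 2-fold, ID1 (0.72 to 1.51) and BMP4 (0.47 to 1.07) cross it, and INHBA, TGFBR1 and SMAD7 cross 0.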

How the data were processed

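Total RNA of each culture was labelled with Cy3 and hybridised to an Agilent 1-colour array. The deposited intensity values were made with Agilent Feature Extraction (version 10.7 per the submitters' processing notes, 10.7.3.1 in the file headers), which subtracts the background. The values of the series table are the same intensity as deposited by the authors, within 0.497%, and neither was normalized between arrays. Control spots and outlier spots (84 and 103) were left out. Spots of a probe were averaged on the log2 scale, the 75th percentile of each array was subtracted, and the brightest probe detected on both arrays stood for a gene. Of 58201 probes, 27731 (47.6%) passed detection under the control vector and 27969 (48.1%) under the DLEU1 vector.

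A call was a difference of at least 2-fold, with no test. The spot SD comes from replicated probes within 1 log2 unit of the mean level of the gene over the 2 arrays (282 in all, pooled SD 0.0800). For a probe lit on a single array, the fold is a bound against its own dim signal or the lowest detected signal, whichever was higher. The genes named were the 10 members, other pathway genes past 2-fold and the nearest relatives. The SMAD9, ACVRL1, GDF7 and INHBE genes were named besides because their group holds few genes. ACVR2B, BAMBI, BMP7, TAGLN, CTGF, SNAI2, THBS1 and LTBP1 were named after their values were seen. The members and the lists by role were chosen with earlier results of these data known. NBL1 had no probe under that name. Alternatives were other scalings (median, 75th percentile over detected probes, quantile, loess with a span of 0.3, none, 8 spike-in probes set equal), normexp with an offset of 50 (limma 3.58.1, R 4.3.3), the series values, other filters, the mean of the probes, leaving out the damaged area, and 1.5-fold and 3-fold limits. Other steps ran in Python 3.11.15 with statsmodels 0.14.6 and were tested on simulated data. Nothing in the labels says how many separate infections stand behind each array. A gene of the target list and a marker gene are counted with their lists and are not reported here by name.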

Additional observations from a re-analysis of the deposited data

How the results depend on the processing

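FST, BMP2 and TGFBR2 stayed past 2-fold in the same direction under each of the 12 alternatives that kept the 2-fold limit, and no gene past 2-fold in the main setting changed sign among the 9. Among the values of these genes under alternatives, 66 stayed within the spot SD of the main value and 41 did not. The other filters, the mean of the probes and leaving out the damaged area returned the main value by construction. Each of these genes had 1 detected probe, and 0 of their spots lay in that area. The series values hold the same intensity, and no scaling shifts every gene by only -0.04. The 66 is thus no measure of stability. Spike-in scaling left 1 of the 10 genes at least 2-fold higher, and gave 12 of 58 other pathway genes higher and 8 lower, because it lowers every difference by the same amount (over all genes 4.6% and 23.9%). Among detected genes past 2-fold, the share that was higher went from 48.4% to 16.2%. Requiring a signal of 100 or more gave 12 higher and 0 lower of the 38 other pathway genes left, since fewer were counted (over all genes 7.27% and 10.2%). The 75th percentile over detected probes gave 0 lower, since its constant shift takes SOST just under 2-fold, and no filter on dim probes gave 2, since it adds the dim ACVRL1. Normexp gave 13 higher and 0 lower of 58, where the shares over all genes were also smaller (5.54% and 6.98%). Its offset of 50 is added to every signal and by construction shrinks the differences of dim probes. How much of the change comes from the offset was not tested. A 3-fold limit gave 1 of the 10 genes higher, 1 lower, 11 other pathway genes higher and 0 lower, and a 1.5-fold limit gave 3 of the 10 genes and 27 other pathway genes higher and 8 of the latter lower, by construction (over all genes 18.4% and 22.0% at 1.5-fold, 3.82% and 3.31% at 3-fold).

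No paired analysis was possible because each group has 1 array, and leaving out an array leaves no comparison. For dim genes such as BMP4, INHA and SOST, the signal over background limits the size of the difference. The spread between cultures was not measured.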
